A study of Mus musculus with 4 samples.

Results

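Open chromatin was examined around 10 genes that make fatty acids and triglyceride or switch on that programme: Fasn, Acaca, Acly, Me1, Elovl6, Scd1, Scd2, Dgat2, Srebf1 and Mlxipl. They are 10 of 22238 protein-coding genes in the mm9 annotation, and were followed through every ATAC-seq peak whose summit lay within 50 kb of any of their annotated transcription start sites. Overlapping peaks of the libraries were merged into sites, which gave 143 member sites of 75574 sites within 50 kb of a coding start and of 100608 sites in all. They held 381 of 239709 peaks. Because the windows are set by distance, 13 of the 143 sites lay at the promoter of another coding gene, and a site is named after the gene in whose window it lies.

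The assay cuts DNA that is accessible in the nucleus with the Tn5 transposase. It was run on im-scWAT cells, stromal vascular cells from the subcutaneous white fat of 5-week-old mice that were immortalised with a viral large T antigen. WT cells carry normal Jmjd1a (Jmjd1a +/+), which encodes a demethylase of histone H3 lysine 9, and in HY cells both copies of the gene carry a tyrosine in place of a histidine, without which the enzyme does not work (Jmjd1a HY/HY). Nuclei were taken before differentiation (D0) and on day 8 (D8), after 2 days in indomethacin, dexamethasone, 3-isobutyl-1-methylxanthine, rosiglitazone, insulin and T3 and 6 days in insulin, T3 and rosiglitazone, which turns the cells into beige adipocytes. Allele and cell culture cannot be told apart, since the cells of each genotype came from different mice. Each group is a single library without a replicate, so each difference below compares libraries, not conditions, and each interval covers counting error only.

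Fatty acids are built from citrate that leaves the mitochondrion. ATP citrate lyase (Acly) cuts it to acetyl-CoA, acetyl-CoA carboxylase (Acaca) makes malonyl-CoA, and fatty acid synthase (Fasn) assembles palmitate with NADPH that malic enzyme (Me1) helps to supply. Elovl6 lengthens palmitate, the stearoyl-CoA desaturases Scd1 and Scd2 put in a double bond, and Dgat2 adds the last acyl chain of triglyceride. The transcription factors SREBP1 (Srebf1), which responds to insulin and sterols, and ChREBP (Mlxipl), which responds to glucose, are known to drive these genes in liver and fat.

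The 4 peak lists held 71523 (WT D0), 41228 (WT D8), 77994 (HY D0) and 48964 (HY D8) peaks. Relative depth, read from the genome-wide background rate, against WT D0 was 0.806 (WT D8), 1.07 (HY D0) and 0.75 (HY D8). Where 4 pileups stand in a row below, they are those of the WT library at D0, the WT library at D8, the HY library at D0 and the HY library at D8. A peak needed at least 4 or 5 overlapping tags at that rate, so a site with no peak is below the calling limit and not at 0. Of 8 adipocyte markers, 2 had a promoter peak at D0 and 6 at D8 in each genotype, with Adipoq, Fabp4, Plin1 and Cidec gaining one and Lep and Cfd without one in any library. Of 6 preadipocyte and fibroblast markers, 6 (WT) and 4 (HY) had a promoter peak at D0 and 1 at D8. The 4 macrophage markers and both muscle markers had none in any library, while of 3 endothelial markers 2 and 0 had one at D0 and D8 in WT and 1 and 1 in HY. The assay reads cell populations, so a site open in more cells cannot be told apart from a site more open in each cell.

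The sequences of 7 sites on which the results turn are given first, each on the plus strand of mm9 and within 100 bp of the summit, with any annotated exon left out. The first 3 had a strong peak at D8 in both genotypes and none at D0. Capitals mark matches, on either strand, to any of the short motifs counted further on, mainly a single nuclear receptor repeat unit (AGGTCA), the CCAAT box of NF-Y (ATTGG), Sp1 (GGGCGG), the E-box (CACGTG), an NFI unit (TTGGCA) and a loose C/EBP site (TTGCNNAA).
Scd1 -8.7 kb (chr19:44490787-44490987): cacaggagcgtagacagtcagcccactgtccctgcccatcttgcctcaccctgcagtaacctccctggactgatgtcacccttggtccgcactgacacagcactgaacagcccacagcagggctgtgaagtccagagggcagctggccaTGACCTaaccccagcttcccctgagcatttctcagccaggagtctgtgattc
Srebf1 -4.3 kb (chr11:60038335-60038535): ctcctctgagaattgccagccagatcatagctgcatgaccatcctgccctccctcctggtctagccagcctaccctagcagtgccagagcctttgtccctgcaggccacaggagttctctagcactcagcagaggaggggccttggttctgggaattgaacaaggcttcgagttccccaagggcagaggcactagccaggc
Acaca intron +25.1 kb (chr11:84011578-84011778): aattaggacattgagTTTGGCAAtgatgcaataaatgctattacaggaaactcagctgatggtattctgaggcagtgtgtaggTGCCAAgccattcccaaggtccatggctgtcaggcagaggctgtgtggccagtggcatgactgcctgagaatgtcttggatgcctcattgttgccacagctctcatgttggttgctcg
The other 4, shown for contrast, lie just upstream of a start, in sites at that start that had a peak in every library. They do not hold the start itself, and the summit they are centred on is that of 1 library.
Fasn -0.478 kb (chr11:120685870-120686070): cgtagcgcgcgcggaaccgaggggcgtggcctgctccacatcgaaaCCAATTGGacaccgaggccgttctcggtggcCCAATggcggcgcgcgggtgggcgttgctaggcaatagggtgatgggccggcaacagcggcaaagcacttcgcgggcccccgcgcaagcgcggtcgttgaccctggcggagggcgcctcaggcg
Scd1 -0.691 kb (chr19:44482790-44482990): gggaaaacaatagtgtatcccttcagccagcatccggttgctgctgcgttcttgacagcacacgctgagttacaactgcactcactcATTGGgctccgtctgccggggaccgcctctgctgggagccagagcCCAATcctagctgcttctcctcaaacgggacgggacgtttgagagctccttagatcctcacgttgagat
upstream of the Srebf1 downstream start (chr11:60023968-60024145): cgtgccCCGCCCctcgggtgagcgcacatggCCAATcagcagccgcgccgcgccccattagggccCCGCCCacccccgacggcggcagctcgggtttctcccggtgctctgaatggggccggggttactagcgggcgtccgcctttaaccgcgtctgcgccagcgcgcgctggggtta
Dgat2 -0.363 kb (chr7:106331486-106331686): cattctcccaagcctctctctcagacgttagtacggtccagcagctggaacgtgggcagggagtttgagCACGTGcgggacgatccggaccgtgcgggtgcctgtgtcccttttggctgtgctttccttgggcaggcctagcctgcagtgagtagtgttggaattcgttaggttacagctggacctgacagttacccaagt
Scd1 -8.7 kb holds 1 nuclear receptor unit, and the Acaca intron site holds 1 loose C/EBP match and 2 NFI units, of which 1 overlaps the C/EBP match. The Srebf1 -4.3 kb window holds none of the motifs. The window upstream of the Fasn start has 3 CCAAT box matches, of which 2 overlap on opposite strands, and that upstream of the Scd1 start has 2. The Srebf1 window before the downstream start has 1 CCAAT box and 2 Sp1 boxes, and the Dgat2 window has 1 E-box.

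The first comparison asked which sites around these genes gained or lost a peak between D0 and D8. Around the synthesis genes, gains were the more common event in WT: 40 of 96 WT D8 sites had no D0 peak (41.7%, 95% exact binomial interval 31.7% to 52.2%), against 23.7% of all sites near coding genes. In HY, 34 of 97 D8 sites had no D0 peak (35.1%, 25.6% to 45.4%), against 24.9% of all sites. Losses were fewer than elsewhere, with 23 of 79 WT D0 sites lacking a D8 peak (29.1%, 19.4% to 40.4%) against 55.2% of all sites. In HY, 30 of 93 D0 sites lacked a D8 peak (32.3%, 22.9% to 42.7%), against 52.5%. All 4 intervals leave out the value over all sites. For gains in HY this was lost with summits within 150 bp joined (42.6%, 32.8% to 52.8%, against 36.3%) and with a window of 100 kb (32.2%, 24.7% to 40.4%, against 26%). Neighbouring sites are not independent draws, so the intervals are narrower than they should be.

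Site by site, 25 of the 143 sites (17.5%) had a peak at D8 and none at D0 in both genotypes, here called opened, against 6.1% of all sites. The reverse, closed in both genotypes, held for 11 sites (7.69%), against 22.7% of all sites. A peak in all 4 libraries was present at 53 sites (37.1%), against 28% of all sites. An opened site lay near 8 of the 10 genes (all but Scd2 and Elovl6), as it did for 27.9% of coding genes. A closed site also lay near 8 of the 10 (all but Elovl6 and Dgat2), against 65.8% of coding genes.

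Most opened sites lay away from the members' starts, the nearest being those at the main Acaca start (0.175 kb) and just inside Mlxipl (+0.946 kb). Of the 25, 12 were intergenic, 12 intronic and 1 was in a 5′ untranslated exon, whereas 0 of 15 sites at a member's promoter (1000 bp upstream to 100 bp downstream of a start) opened in both genotypes and 11 of the 15 had a peak in all 4 libraries. Of all sites at coding promoters, 2.09% opened in both genotypes and 68.9% had a peak in all 4 libraries, and 7.01% of all opened sites lay at a coding promoter. They were also tall: the summit pileup, the number of overlapping tags at the summit, had a median of 21 at D8 in both WT and HY, against 13 and 13 over all 4610 opened sites. In 5 of the 25 (20%) both genotypes reached a pileup of at least 40, against 1.26% of all opened sites. These 5 were 3 Scd1 sites, the Acaca intron site and Srebf1 -4.3 kb. Local background at the opened sites was also higher, at a median of 3.76 (WT D8) and 3.66 (HY D8) times the genome-wide rate against 1.98 and 2.04 times over all opened sites, and its part in the heights was not tested. Over all member peaks it was above that of all sites on both days, at 2.95 against 1.95 (WT D0), 4.15 against 2.34 (WT D8), 2.9 against 1.9 (HY D0) and 3.66 against 2.15 (HY D8).

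**Figure D1:**
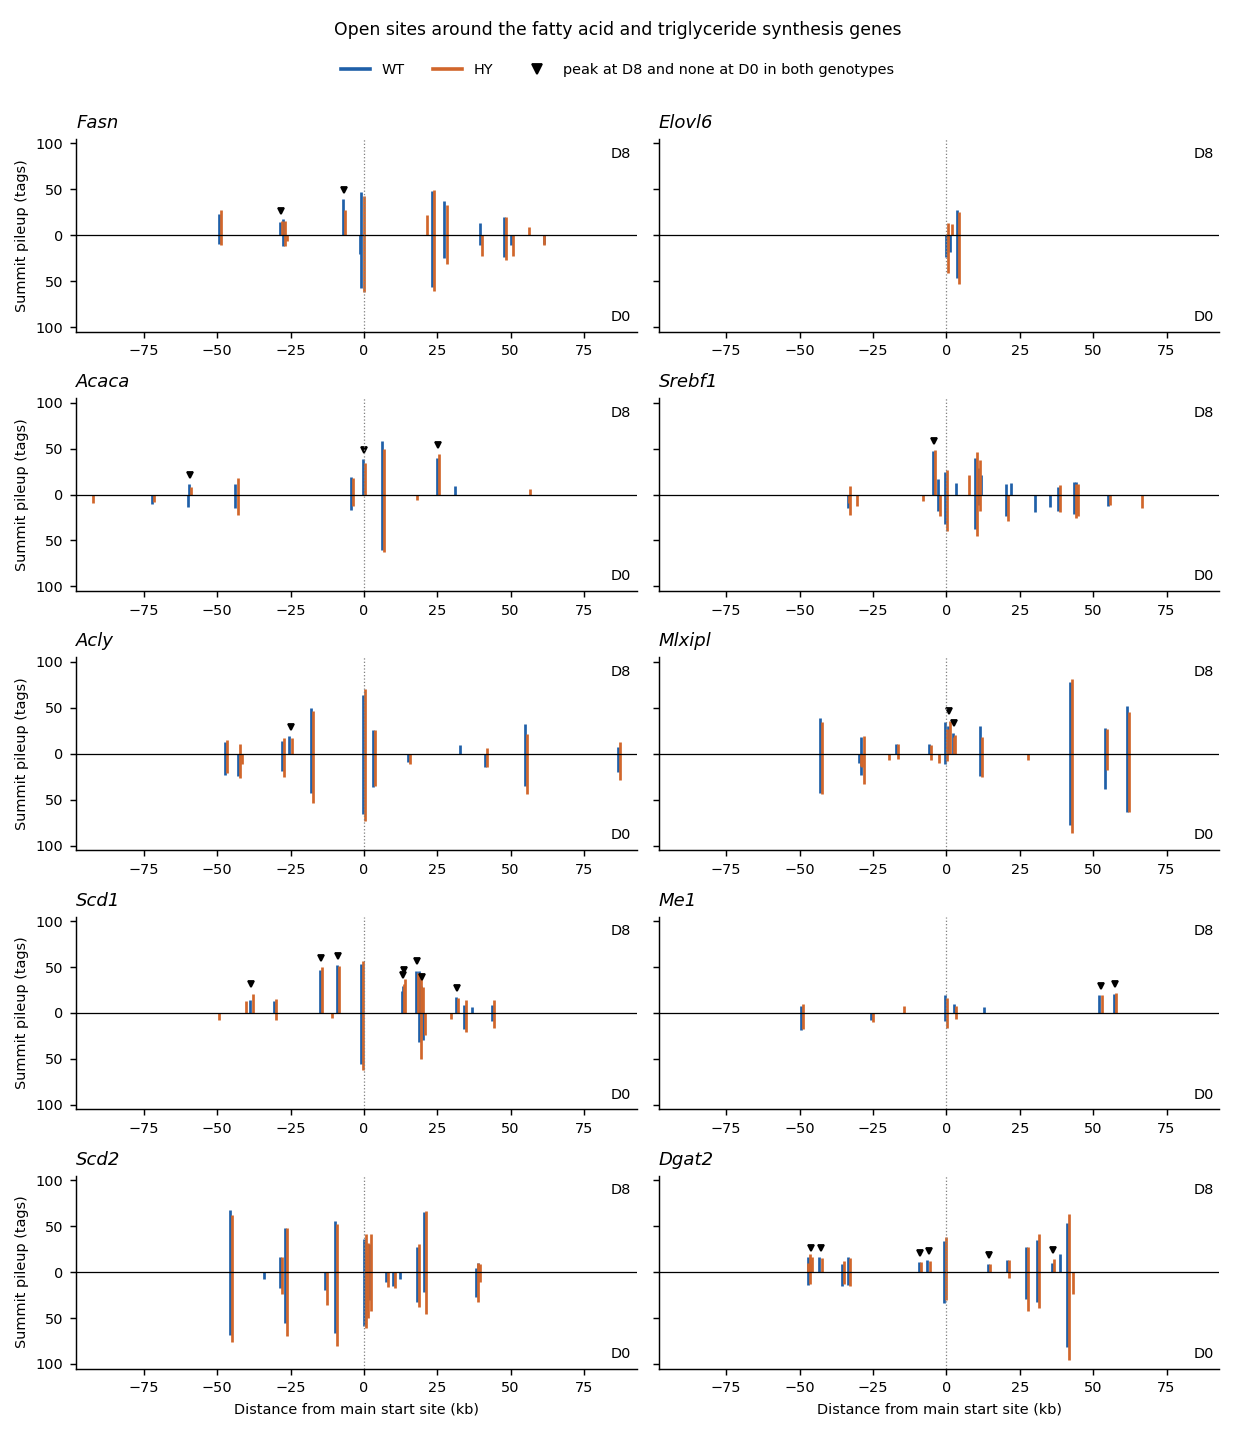
Each panel is 1 gene, with distance from its main start site in kb on the x axis (downstream positive) and summit pileup in tags on the y axis, D8 upward and D0 downward, not scaled for depth. WT (blue) and HY (orange) lines are drawn side by side around the site's position, and triangles mark the 25 sites with a peak at D8 and none at D0 in both genotypes, of which 8 are at Scd1 and 6 at Dgat2.

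The desaturase gene Scd1 had the most opened sites of the 10. Its window (main start at chr19:44482199, minus strand) held 19 sites, of which WT cells had a peak at 5 on D0 and at 14 on D8, HY cells at 9 on D0 and at 14 on D8, and 17 of the 19 had no nearer coding start than that of Scd1. Of the 19, 8 opened in both genotypes. The tallest was chr19:44490646-44491276, at -8.7 kb, with 52 tags (WT) and 51 tags (HY) at D8. A second upstream site, chr19:44496360-44497377 (-14.7 kb), reached 47 and 50. Both are intergenic and neither had a D0 peak. Downstream of the gene, opened sites stood at +31.7 kb (17 in WT D8, 16 in HY D8), +19.7 kb (29 and 28), +18 kb (46 and 43), +13.6 kb (29 and 37) and +13.3 kb (24 and 31), and the most distal upstream one at -38.3 kb (14 and 21).

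Part of this downstream group is a cluster in which gained and lost peak calls lay side by side. A site at +20.4 kb with 29 tags in WT D0 and 24 in HY D0 had no D8 peak, its neighbour at +19.7 kb opened, and the next, at +19.1 kb (named for its place after its values were seen), had a peak in all 4 libraries (32, 46, 50 and 44 tags). Local background at +20.4 kb was 3.03 tags in WT D0 and 4.1 in HY D0. At +19.7 kb it was 8.96 in WT D8 and 8.84 in HY D8. Its part in the missing D8 peak at +20.4 kb was not tested. Of all 143 member sites, 21 lay under 500 bp from the next. At +13.3 kb the local background at D8 was 10.9 tags (WT) and 11.8 tags (HY), and the deposited −log10 q of the peaks was 1.4 and 3.5, far below the 36.0 and 36.1 of the -8.7 kb site. The values were also low at +13.6 kb (2.95 in WT, 5.96 in HY) and +19.7 kb (4.92 and 4.59). With peaks whose −log10 q was under 5 left out (a count added after seeing these values), Scd1 had 6 opened sites in place of 8, Dgat2 3 in place of 6, Mlxipl 3 in place of 2, and all 10 genes 21 in place of 25. The site over the Scd1 start had pileups of 56, 53, 62 and 56 tags, with summits at -663, 128, -691 and -301 bp from the start. Scaled for depth, the D8/D0 ratio of these summits was 1.17 in WT (0.791 to 1.74) and 1.29 in HY (0.885 to 1.89). It compares summits at different positions, not the start base. The site was open on both days, and its strongest peak did not differ in height beyond counting error. Its deposited fold enrichment fell from 12.6 to 5.3 in WT and from 12.5 to 5.77 in HY while the local background rose from 3.51 to 9.18 and from 4.03 to 8.88.

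Scd2, the second desaturase of the same chromosome, did not show that gain. Its 16 sites included none that opened in both genotypes and 3 that closed in both: -12.8 kb (20 tags in WT D0, 36 in HY D0), +7.8 kb (11 and 16) and +10.1 kb (15 and 17). Its start region, with the summit about 0.378 kb into the gene, had 59, 36, 61 and 41 tags. The depth-scaled D8/D0 ratio was 0.757 in WT (0.486 to 1.17) and 0.962 in HY (0.632 to 1.45). One Scd2 site that was singled out after its values were seen, +20.9 kb, gained height in place of appearing, from 22 to 66 tags in WT (ratio 3.72, 2.27 to 6.34) and from 46 to 67 in HY (2.09, 1.41 to 3.11). At +38.5 kb, the promoter of the paralogue Scd4, the pileup went the other way, from 27 to 5 in WT (0.23, 0.0691 to 0.606) and from 33 to 10 in HY (0.434, 0.191 to 0.901). A second site at that promoter, at +39.3 kb and nearer the Scd4 start, had no WT D0 peak and 10 tags in WT D8, and 11 and then 9 tags in HY (1.17, 0.429 to 3.11).

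Dgat2, which completes triglyceride, had 6 opened sites and 0 closed in both genotypes. WT D8 had peaks at 15 of its 17 sites and HY D8 at 15, against 7 and 9 at D0. The opened sites were low, from 9 to 16 tags: +36.4 kb (10 in WT D8, 14 in HY D8), +14.6 kb within the gene (9 and 9), -6.1 kb (13 and 12), -9.0 kb (11 and 11), and 2 sites in introns of the neighbouring acyltransferase gene Mogat2 at -42.9 kb (16 and 15) and -46.3 kb (9 and 16). These heights are close to the calling limit, so a D0 signal just under it was not detectable. The Dgat2 start had 34, 34, 30 and 38 tags, with a D8/D0 ratio of 1.24 in WT (0.749 to 2.06) and 1.81 in HY (1.09 to 3.03).

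Among the enzymes that lead to palmitate, Acaca gained a peak at a start site. Its window spans several starts, and 12 sites lay in it. The start at chr11:83986624 (plus strand), that of the main transcript, had no D0 peak in either genotype and 39 tags in WT D8 and 34 in HY D8, in a peak from chr11:83986544 to 83987035 that lies over the start. Its summit lay past the promoter window, at 0.175 kb. The start near chr11:83993313, downstream of it, was open throughout with 60, 58, 63 and 50 tags (D8/D0 ratio 1.2 in WT and 1.14 in HY). The far upstream start at chr11:83943174, shared with Tada2a, had 15, 11, 22 and 18 tags. Within an Acaca intron a further opened site, chr11:84011239-84011898 at +25.1 kb, reached 40 (WT) and 44 (HY) tags at D8, and a weak one lay at -59.3 kb (11 and 8) inside Tada2a. Right beside the weak site, at -59.5 kb, WT D0 had a peak of 14 tags that no other library had. Closing in both genotypes was seen at -71.7 kb (10 tags in WT D0, 8 in HY D0).

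Fasn had a start open in every library and 2 opened sites upstream. The start (chr11:120685492, minus strand) lay under 1 wide peak with 57, 47, 62 and 43 tags, and depth-scaled D8/D0 ratios of 1.02 (0.68 to 1.53) and 0.993 (0.657 to 1.49). The summits lay at -469, 179, -478 and -467 bp from the start, so the WT ratio compares different positions. At -6.7 kb, in an intron of Ccdc57 and at the start of the processed transcript Gm11773, chr11:120692071-120692568 rose from no peak to 39 tags in WT D8 and 28 in HY D8. The second opened site, at -28.1 kb, had 14 and 16 tags. A site at -49.1 kb that was open on both days went from 10 to 23 tags in WT (ratio 2.85, 1.31 to 6.72) and from 11 to 28 in HY (3.65, 1.76 to 8.11). The closed site of the window lay at +50.5 kb, with 11 tags in WT D0 and 23 in HY D0.

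Acly had 1 opened and 1 closed site. Its start (chr11:100389314, minus strand) had 66, 64, 73 and 70 tags, the tallest start of the 10 genes in each library, with D8/D0 ratios of 1.2 in WT (0.84 to 1.72) and 1.37 in HY (0.975 to 1.93). An inner start at chr11:100384912 had 36, 26, 35 and 26 tags. The opened site was at -25.0 kb in an intron of Ttc25 (19 in WT D8, 17 in HY D8) and the closed site at +15.5 kb (9 in WT D0, 11 in HY D0). Among Acly sites open in all 4 libraries, the lowest D8/D0 ratio, 0.434 in WT and 0.642 in HY, was at the promoter of Klhl10 and Nt5c3l, +86.9 kb away, where the intervals reached from 0.155 to 1.07 and from 0.306 to 1.27.

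Me1 opened deep in its gene body. In its introns, chr9:86532421-86532786 (+57.3 kb) had 21 (WT) and 22 (HY) tags at D8, while chr9:86537106-86537504 (+52.5 kb) had 19 in each, with no D0 peak at either. Its start (chr9:86589947, minus strand) had a low peak of 9, 19, 16 and 16 tags. The D8/D0 ratio there was 2.62 in WT (1.13 to 6.58) and 1.43 in HY (0.67 to 3.06), and the difference between those ratios was not tested. One site closed in both genotypes, at -25.2 kb (8 in WT D0, 10 in HY D0).

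Elovl6 was the sparsest locus. Only 3 sites lay in its window, all nearest to its own start (chr3:129235304, plus strand). The start had 24 tags in WT D0, no peak in WT D8, 41 tags in HY D0 and 13 in HY D8, a D8/D0 ratio of 0.454 in HY (0.223 to 0.864). In the first intron, the +4.0 kb site fell in tags from 47 to 28 in WT and from 53 to 25 in HY, though with depth taken into account the ratios of 0.739 (0.446 to 1.21) and 0.675 (0.402 to 1.11) included 1. At +1.6 kb the genotypes went opposite ways, with a peak in WT D0 (18 tags) and HY D8 (12 tags) and in no other library.

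**Figure D2:**
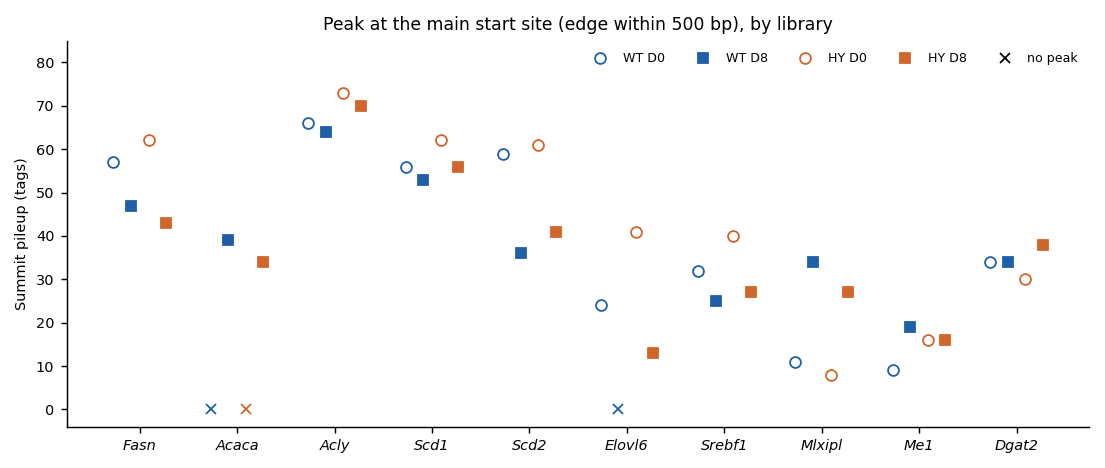
Summit pileup in tags (y axis, not scaled for depth) of the strongest peak with an edge within 500 bp of each gene's main start site, by library, with crosses at 0 where no peak was listed. Acly stands highest in every library, Mlxipl is higher at D8 (34 and 27 tags) than at D0 (11 and 8), Acaca has a peak only at D8 and Elovl6 has none in WT D8.

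The 2 transcription factor genes both gained sites close to their starts. Mlxipl, which encodes ChREBP, had the largest rise at a start that was open on both days. At chr5:135582772 (plus strand) the pileup went from 11 in WT D0 to 34 in WT D8 and from 8 in HY D0 to 27 in HY D8, ratios of 3.84 (1.9 to 8.39) and 4.83 (2.14 to 12.3). Just inside the gene, +0.946 kb opened to 30 (WT) and 36 (HY) tags at D8, and +2.7 kb to 23 and 20. A first exon of the shorter ChREBP-beta form is known to lie upstream of this start and is not among the annotated starts used here. The upstream site at -17.0 kb, named for its place after its values were seen, had no WT D0 peak, 11 tags in WT D8, and 6 and then 11 tags in the HY libraries. Both closed sites, at -29.5 kb (10 in WT D0, 13 in HY D0) and -29.1 kb (9 and 15), lay next to a site at the Vps37d promoter that was open in all 4 libraries.

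Srebf1 has an upstream start, known to give SREBP1a, and a downstream start known to give SREBP1c, the main form in fat. The upstream start (chr11:60034106, minus strand) had 32, 25, 40 and 27 tags, with D8/D0 ratios of 0.97 (0.551 to 1.69) and 0.967 (0.57 to 1.61). The downstream start (chr11:60023967) had 38, 40, 45 and 46 tags, with ratios of 1.31 (0.817 to 2.09) and 1.46 (0.949 to 2.26). Neither start changed beyond counting error. The changes lay beside them: +11 kb, in the intron just after the downstream start, went from 11 to 29 tags in WT (3.27, 1.59 to 7.26) and from 18 to 38 in HY (3.02, 1.68 to 5.63), and chr11:60038248-60038609, at -4.3 kb, opened to 47 tags in WT D8 and 48 in HY D8. The window's closed site lay at +55.3 kb (12 in WT D0, 11 in HY D0).

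Where a site was open on both days, heights around the 10 genes were on balance slightly above those at D0 after scaling for depth. The median D8/D0 pileup ratio was 1.13 over 56 WT sites (0.23 to 3.84) and 1.15 over 63 HY sites (0.434 to 4.83), against 0.91 and 0.908 over all sites. The ratio was at least 2 at 5 of 56 WT sites (8.93%, against 4.15% of all) and at 10 of 63 HY sites (15.9%, against 4.89%). It was at most 0.5 at 2 of 56 WT sites (3.57%, against 12.7%) and at 2 of 63 HY sites (3.17%, against 14.7%). Of the 53 sites open in all 4 libraries, the interval lay above 1 in both genotypes at 4 (Mlxipl start, Srebf1 +11 kb, Fasn -49.1 kb and Scd2 +20.9 kb) and below 1 in both at 1 (Scd2 +38.5 kb), against 2.71% and 7.45% of all sites open in every library. The WT and HY ratios lay on opposite sides of 1 at 12 of the 53, against 23.8% of such sites. The signs of the medians depend on reading pileup: the deposited fold enrichment, which divides by the local background, gave medians of 0.874 in WT and 0.9 in HY, against 0.9 and 0.868 over all sites.

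By the summit rule, a promoter peak was present for 9 (WT D0), 6 (WT D8), 9 (HY D0) and 9 (HY D8) of the 10 genes, against 53.6%, 49.7%, 54.5% and 50.6% of coding genes. Scd2 was missing in every library and Fasn, Scd1 and Elovl6 in WT D8. Only the Elovl6 case is a lost peak. The Fasn and Scd1 peaks of WT D8 span the start with summits 179 and 128 bp inside the gene, and the Scd2 summits lay 303 to 378 bp inside it. Counting any peak that overlaps the promoter window, an alternative chosen after seeing these values, gave 10, 9, 10 and 9 genes, with Elovl6 missing in WT D8 and Scd2 in HY D8.

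The second comparison asked whether sites around these genes differed between WT and HY. At D8, 84 of 96 WT sites had a HY peak (87.5%, 79.2% to 93.4%), against 87.5% of all sites, and 84 of 97 HY sites had a WT peak (86.6%, 78.2% to 92.7%), against 73.7%. At D0, 71 of 79 WT sites had a HY peak (89.9%, 81% to 95.5%), against 85.6%, and 71 of 93 HY sites had a WT peak (76.3%, 66.4% to 84.5%), against 77.4%. No site of the 143 had a peak on both days in 1 genotype and on neither in the other, where a count of 0 allows up to 2.1% and 1.23% of all sites did. Within 10 kb of a start the share of WT D8 sites with a HY peak was 77.5%, against 89.4% of all sites. The gap in HY D8 sites narrowed to 84.6% against 80% with a −log10 q of at least 5, to 88.2% against 80.8% with lists of the same length and to 83.8% against 79.8% within 10 kb of a start. It was 78.2% against 62.9% when 50% of a peak had to be covered, 80.2% against 67.8% with joined summits and 82.2% against 72.4% within 100 kb.

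Pileups at shared sites were close. The depth-scaled HY/WT ratio had a median of 1.1 over 71 D0 sites (0.441 to 1.95, against 1.06 over all sites) and of 1.07 over 84 D8 sites (0.645 to 2.15, against 1.11). It was at least 2 or at most 0.5 at 1 of 71 sites at D0, where 3.05% of all sites were, and at 1 of 84 at D8, where 2.01% were. The interval left out 1 at 0 of 84 sites at D8, against 0.977% of all shared sites, and at 2 of 71 at D0, against 2.04%. Those 2 were Scd2 +20.9 kb (1.95, 1.15 to 3.4) and a site in Tbl2 at +54.5 kb from Mlxipl (0.441, 0.237 to 0.792), both singled out after their values were seen. At single sites these intervals still allow sizeable differences. That of the Scd1 start at D8 ran from 0.766 to 1.68, and that of the Mlxipl start from 0.495 to 1.46.

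**Figure D3:**
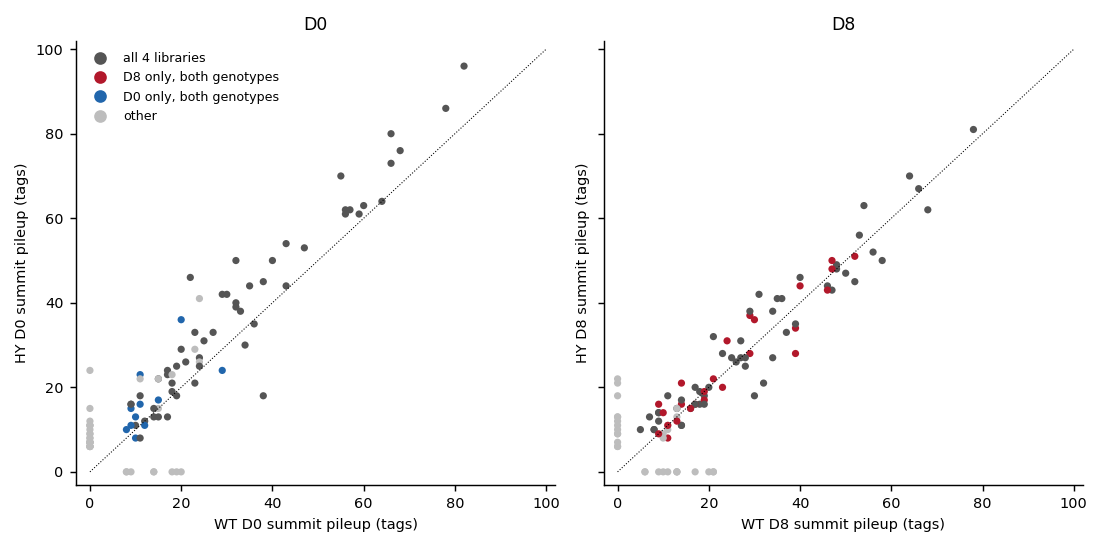
Summit pileup in tags of each of the 143 sites with a peak on that day, WT on the x axis and HY on the y axis, at D0 (left) and D8 (right), with 0 standing for no peak and the dotted line for equal pileup, not scaled for depth. The 25 sites opened in both genotypes (red) follow the line at D8, and the sites listed in 1 genotype only lie along the axes below 25 tags.

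Sites listed in 1 genotype only reached at most 24 tags. At D8 there were 12 with a WT peak only (8.39% of 143, against 5.08% of all sites), with a median of 13 tags and at most 21. There were 13 with a HY peak only (9.09%, against 12.8%), with a median of 11 and at most 22. At D0 there were 8 with a WT peak only (5.59%, against 10%; median 14, at most 20) and 22 with a HY peak only (15.4%, against 17.3%; median 7.5, at most 24). Srebf1 held 6 of the 9 WT-only D8 sites that reached 10 tags, at +22.2 kb (13 tags), +20.7 kb (11), +12.0 kb (21), +3.6 kb (13), -2.5 kb (17, at a non-coding start) and -4.0 kb (21), while HY D8 had 1 of its own there, at +7.2 kb (21 tags). In that order, the −log10 q of those 6 WT peaks was 3.49, 2.23, 4.42, 3.14, 3.32 and 5.97, over local backgrounds of 2.64 to 5.47 tags. Only the last reached the minimum of 5 used as an alternative. That of the HY peak at +7.2 kb was 4.52. WT D8 had peaks at 13 of the 22 Srebf1 sites and HY D8 at 9, against 12 and 14 at D0. The site at -4.0 kb lies beside the -4.3 kb site that reached 47 and 48 tags. Among the rest, Fasn +21.2 kb (22 tags), Mlxipl +2.2 kb (18) and Scd1 -40.4 kb (13) had a peak in HY D8 and in no other library, and Dgat2 +39.2 kb (20) in WT D8 only. Their −log10 q was 3.76, 3.77, 7.87 and 6.06. The Elovl6 start, open in both genotypes at D0, had a D8 peak in HY only (13). No test of these single-library calls was possible.

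The other genes of lipid metabolism place these values. Over 32 further synthesis genes with 409 sites, 33.9% of WT D8 sites (27.9% to 40.3%) and 32.7% of HY D8 sites (26.9% to 38.8%) had no D0 peak, and 22 of the 32 had an opened site. The largest numbers of opened sites were at Insig1, the sterol sensor that holds back SREBP processing (6), Acacb (5), and Pgd, Acsl1 and Agpat2 (4 each). The other 10 of the 32 had 0, among them Nr1h3, which encodes the sterol receptor LXR alpha, and Acss2. For 8 lipolysis genes the shares were 50.7% in WT and 43.2% in HY, with all 8 having an opened site. For 8 uptake and binding genes they were 57.1% and 54.1%, with 5 of 8, where Cd36 had 11 opened sites, Fabp4 8 and Lpl 7. For 10 fatty acid oxidation genes they were 25.9% and 24.6%, with 6 of 10. The intervals of the 10 genes overlapped those of each of these 4 lists in each genotype, whereas those of the 32 further synthesis genes lay below those of the uptake and binding genes (44% to 69.5% in WT, 42.1% to 65.7% in HY). Losses showed less spread, from 35.2% to 46.8% over these 4 lists. Scd3 and Scd4, on the synthesis list, share sites with Scd1 and Scd2.

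**Figure D4:**
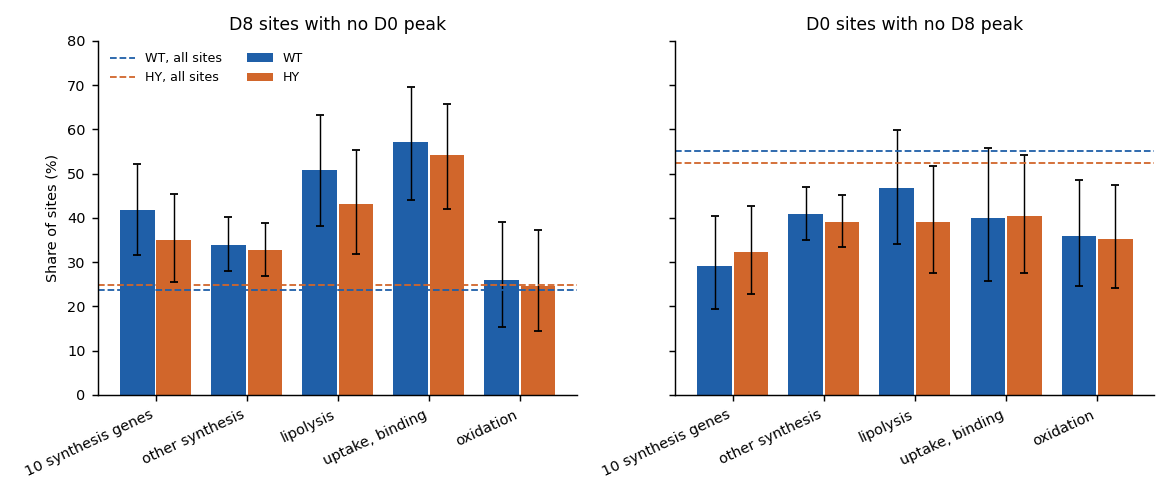
Share of D8 sites with no D0 peak (left) and of D0 sites with no D8 peak (right), in percent, for the 10 synthesis genes and 4 further lists, with WT in blue, HY in orange and bars for 95% exact binomial intervals. Dashed lines give the same shares over all sites near coding genes (23.7% and 24.9% on the left, 55.2% and 52.5% on the right).

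Short motifs were counted within 100 bp of each summit on both strands. Of the 25 opened sites, 7 (28%) held the nuclear receptor unit AGGTCA, against 20.3% of all opened sites, and 0 held the full PPAR:RXR repeat AGGTCANAGGTCA or the LXR:RXR repeat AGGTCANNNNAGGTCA, which 0.0868% and 0.0651% of all opened sites held. The 7 included Scd1 -8.7 kb, printed above, and the Acaca start and Fasn -6.7 kb sites. The sterol element TCACNCCAC was in 2 of the 25 (8%, against 1.08%), both at Dgat2 (-9.0 kb and -46.3 kb). The loose C/EBP letters TTGCNNAA were in 4 of 25 (16%, against 26.2%) and the NFI unit TTGGCA in 6 of 25 (24%, against 27.2%). Of the 11 closed sites, 5 (45.5%) held AP-1 letters TGANTCA, against 30.2% of all closed sites, where the opened sites had 8% and 7.01%. Sites open in all 4 libraries held CACGTG in 6 of 53 (11.3%, against 6.16%), ATTGG in 20 of 53 (37.7%, against 27.8%) and GGGCGG in 20 of 53 (37.7%, against 39.9%). With so few sites these are counts only, and a match is not evidence of binding. Median GC content was 52.2% at the opened sites, 50.7% at the closed and 58.7% at those open in all libraries, against 50.2%, 49.8% and 58.7% over all sites of those kinds.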

How the data were processed

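Nuclei of 4 im-scWAT libraries, 1 per group, were profiled. The authors trimmed and filtered the reads, aligned them, removed PCR duplicates and called peaks on each library. Their methods name Trimmomatic and MACS3 for data treated the same way, and the submitters' processing notes list Bowtie2, SAMtools, Picard, deepTools and the mm9 build. Versions, the calling threshold and any shift of read ends for Tn5 are not given in the sources used here, and an unshifted end would move a summit by a few bases.

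Each deposited list gives per peak a fold over the local background (a ratio), −log10 p and −log10 q. The deposited score, a rescaled −log10 q, was not used. None of these values was normalised between libraries. From fold and −log10 p, the whole-number summit pileup and local background were solved for 100% of peaks, within 0.002 of the deposited value (99.8% with 1 solution). The solver was tested on simulated data. The lowest background in a list served as its relative depth. The number of reads is not given in the lists. Peaks off the assembled chromosomes (118 to 196 per list) were left out.

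Peaks overlapping by at least 1 bp formed sites. The pileup of a site in a library is that of its strongest peak there, so the summits compared can lie apart. A site opened when it had a D8 and no D0 peak. Pileup ratios were divided by relative depth and given with 95% exact conditional binomial intervals, shares with Clopper-Pearson intervals (Python 3.11.15, SciPy 1.17.1, pandas 2.3.3, numpy 2.4.6). No p-value was computed, since no group had a replicate. Coordinates and starts are 1-based, from mm9 (NCBIM37) with its GENCODE annotation, and 0 chromosomes had a peak past their end. The main start is that of the gene's main protein-coding transcript, and distances in kb run in the direction of the gene.

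The 10 genes, the other lists and the motifs were chosen with earlier results of these data known. Sites named are those at starts, those opened or closed in both genotypes, and those said to be singled out later. Of the sites with at least 10 tags in 1 genotype and no peak in the other, only some are named. Also named are the sites flagged for opposite ratios and the 3 largest ratios in each direction. These 3 were ranked, among sites open in all 4 libraries, by the genotype with the smaller change. Alternatives were the overlap rule, joined summits, a −log10 q minimum of 5, equal list lengths, windows of 10 and 100 kb, the nearest start only, promoter windows, another scaling and the deposited fold.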

Additional observations from a re-analysis of the deposited data

Results flagged for a closer look

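These 13 sites were flagged because the WT and HY ratios or peak calls between D0 and D8 lay in opposite directions, and none of these differences was tested. Of the 53 sites open in all 4 libraries, 12 had depth-scaled D8/D0 pileup ratios on opposite sides of 1 (all such sites, 23.8%), and at 11 of the 12 the intervals of both genotypes include 1. The exception is the Tbl2 site at Mlxipl +54.5 kb, with 0.915 in WT (0.541 to 1.53) and 2.15 in HY (1.14 to 4.14). At the Fasn start the ratios were 1.02 in WT and 0.993 in HY, practically equal. At the far upstream Acaca start shared with Tada2a they were 0.91 (WT) and 1.17 (HY), and at the inner Acly start 0.896 and 1.06. The ratio was lower in WT also at Acly -47.0 kb (0.702 and 1.02) and Dgat2 -35.2 kb (0.745 and 1.32). It was higher in WT at Acly +55.2 kb (1.13 and 0.683), Srebf1 +44.5 kb (1.02 and 0.685) and Dgat2 +27.4 kb (1.16 and 0.921). The same held at Scd2 -28.3 kb (1.24 and 0.955), -26.6 kb (1.08 and 0.982) and -9.4 kb (1.05 and 0.931). The Elovl6 +1.6 kb site had 18 tags in WT D0 and 12 in HY D8 and no peak in the other libraries, so it closed in WT and opened in HY. Such opposite calls occurred at 1 of the 143 sites (0.699%) and at 0.773% of all sites. Both this count and the 12 of 53 are near the shares over all sites.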

How the results depend on the processing

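Of 85 values under 12 alternatives, 68 were counted as unchanged and 17 as moved. The shares counted as moved lay outside their reported interval, and the medians on the other side of 1. No count of genes was labelled as moved. Yet genes with a WT D8 promoter peak rose from 6 to 9 with a window of 2000 bp upstream to 1000 bp downstream, and with any overlapping peak. Opened sites near 6 to 9 of the 10 genes were found under the 7 alternatives in which they were recounted. Under each of the 6 alternatives in which all sites were recounted, the gained share around the 10 genes stayed above that of all sites and the lost share below it, in both genotypes. The gap was smallest for gains in HY, at 32.2% against 26% within 100 kb and 42.6% against 36.3% with joined summits, where the exact intervals include the value over all sites. In the other 22 comparisons they leave it out. Counting a peak as shared only when 50% of it was covered raised the share of D0 sites with no D8 peak to 49.4% in WT and 46.8% in HY (all sites, 70.3% and 68.9%), and lowered the share of HY D0 sites with a WT D0 peak to 64.9%. Joining summits within 150 bp lowered the share of WT D0 sites with a HY D0 peak to 80.7% and of WT D8 sites with a HY D8 peak to 78.6%. With lists of the same length, D8 sites with no D0 peak came to 47.3% in HY (all sites, 34%), D0 sites with no D8 peak to 16.1% in WT and 14% in HY (36.7% and 35.1%), and HY D0 sites with a WT D0 peak to 86%. Within 10 kb of a start, D0 sites with no D8 peak came to 18.5% in WT and 22.6% in HY (all sites, 44.4% and 43.4%), and WT D8 sites with a HY D8 peak to 77.5% (all sites, 89.4%). For sites whose nearest coding start is a member's, D8 sites with no D0 peak came to 54.7% in WT and 50% in HY. The median D8/D0 ratio fell below 1 with the deposited fold, to 0.874 in WT and 0.9 in HY, since that value divides by the local background. The median HY/WT ratio at D8 was 0.966 when scaled by shared promoter peaks, so its side of 1 depends on the scaling. No paired analysis was possible because each group had 1 library, and leaving out a replicate was not possible either. The calling limit rises with the local background. Sites of about 10 tags or fewer are near it, and so are taller ones over a high background. At Scd1 +13.3 kb in WT D8, 24 tags over a background of 10.9 had a −log10 q of 1.4. Near the limit an absent peak does not show an absent signal.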
